A study of Homo sapiens with 2 samples.

Results

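The genes described here are 37 named members of the cellular response to low oxygen, chosen by symbol and leaving out the enzymes of glycolysis itself. They cover the hypoxia-inducible factor (HIF) subunits, the oxygen-sensing and feedback genes, and targets that act on pH, collagen, mitochondria, secretion and metabolism. A probe set, the group of probes that reads 1 transcript region, was assigned to a member if the platform annotation gave it that gene as its only symbol, under an older or the current name. By this rule 36 of the 37 genes had 99 probe sets, out of 19775 genes on the array, and 35 were detected. CA9, a membrane carbonic anhydrase, had none and was not analysed here. EGLN2, a prolyl hydroxylase, had 1 such probe set, which read below the background floor on both arrays.

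The study compared 2 samples labelled as U87, an established human glioblastoma line. One was transiently transfected, by a lipid reagent, with siRNA to FOXM1, which encodes a forkhead factor of the late cell cycle, and the other with the control labelled None target siRNA, and both were taken at 48 hours. Their arrays are called FOXM1-si and NT-si below, by label only. The culture protocol in the labels names a humid CO2 incubator with serum-containing medium and no low-oxygen step, and each group is 1 sample on 1 array. There is therefore no SD between samples, no test and no p-value. All differences below are between 2 arrays as labelled.

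HIF is a dimer of an alpha subunit, HIF1A or EPAS1 (HIF-2 alpha), with ARNT. In oxygenated cells the EGLN prolyl hydroxylases mark the alpha subunit for recognition by VHL and destruction. When oxygen is short the subunit escapes this, enters the nucleus and activates genes through a short DNA core, A/GCGTG. The main control of the alpha subunits is thus on the protein, which an RNA array does not read. In glioblastoma the response is best known around necrotic zones, where the tumour outgrows its vessels.

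Signals are MAS5 intensities on a linear scale, and each log2 difference is FOXM1-si minus NT-si. The floor, 77.7 on FOXM1-si and 60.8 on NT-si, is the level under which 90% of the probe sets for olfactory receptor genes lay. A gene is given by its brightest probe set and counts as detected where this exceeded the floor on either array. EGLN2 read 40.5 on FOXM1-si and 12.1 on NT-si. The only available error is the disagreement between 2 probe sets of the same gene, whose log2 differences had an SD of 0.65 about each other over 5476 genes, or 0.46 per probe set. That SD covers the arrays and probes and not the spread between cultures. Signals of different probe sets are not set against each other, since each probe set has its own response.

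Both arrays carried features that bear on every value below. FOXM1 read 1343 on FOXM1-si and 1520 on NT-si, a log2 difference of -0.18 that lies within the SD per probe set, so the siRNA target does not check the labels. CDKN2A, a cell cycle inhibitor gene of the 9p21 region that U87 cells are known to lack, read 421 on FOXM1-si against 3467 on NT-si, and its neighbours CDKN2B and MTAP read 31.8 on FOXM1-si against 350 on NT-si and 76.3 on FOXM1-si against 619 on NT-si. A difference between the cells and an effect of the siRNA cannot be told apart here. Of 6 mesenchymal markers all were detected and 5 were at least 2-fold higher, their summed signal being 124955 on FOXM1-si against 29371 on NT-si. The 6 epithelial markers summed to 817 on FOXM1-si against 3063 on NT-si, a gap carried by KRT18 (380 on FOXM1-si against 2655 on NT-si). Of the 4 epithelial markers detected, 2 lay above 0 and the median log2 difference was -0.13, while KRT19 and CLDN4 were below both floors. The 7 glial and neural markers summed to 1597 on FOXM1-si against 1225 on NT-si, and single genes went opposite ways. SOX2 read 59.2 on FOXM1-si against 680 on NT-si (at least 8.75-fold lower), MAP2 985 on FOXM1-si against 89.8 on NT-si (a log2 difference of 3.45) and NES 261 on FOXM1-si against 54.0 on NT-si (at least 4.29-fold higher), with GFAP and AQP4 below both floors. None of the 4 leukocyte markers with a probe set was detected, and of the 5 endothelial markers, which summed to 451 on FOXM1-si against 102 on NT-si, PECAM1 alone was above both floors (113 on FOXM1-si against 62.8 on NT-si, 1.80-fold). The other endothelial signals on NT-si were below its floor, CDH5 and TEK on both arrays, so the gap between those sums is not a measured fold. For ACTB, the ratio of 3' to 5' control signal, a sign of RNA integrity, was 4.21 on FOXM1-si against 6.79 on NT-si, and for GAPDH it was 1.09 on FOXM1-si against 1.26 on NT-si. In bulk RNA, fewer cells of a type and less RNA per cell cannot be told apart. The part of these features in the differences below was not tested.

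Most hypoxia response genes read higher on FOXM1-si. They were chosen with earlier results of these data known, so the shares below are not an independent comparison. Of the 35 detected, 23 (65.7%) were at least 2-fold higher, whereas 16.0% of all 13865 detected genes were. None was at least 2-fold lower, against 15.4% of all detected genes, and 12 differed by less than 2-fold. Of those 12, 7 lay above 0 and 5 below. The median log2 difference was 1.48, or 2.80-fold, with quartiles of 0.62 and 2.23, and the median over all detected genes was 0.01 with quartiles of -0.64 and 0.62. At least 4-fold higher were 11 members (31.4%, against 6.12% of all detected genes), and at least 8-fold higher were 5 (14.3%, against 2.73%). All 35 lay above the floor on both arrays, so no fold given for a brightest probe set is a bound. With the 18 hybridisation controls set equal instead of the deposited scaling, 21 members were past 2-fold upward and 1, EGLN3, downward. Over all detected genes the split was then 1567 higher and 3200 lower, in place of 2218 and 2132. This scaling lowers every log2 difference by the same 0.30, which put the median of the members at 1.18 and that of all genes at -0.29.

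**Figure D1:**
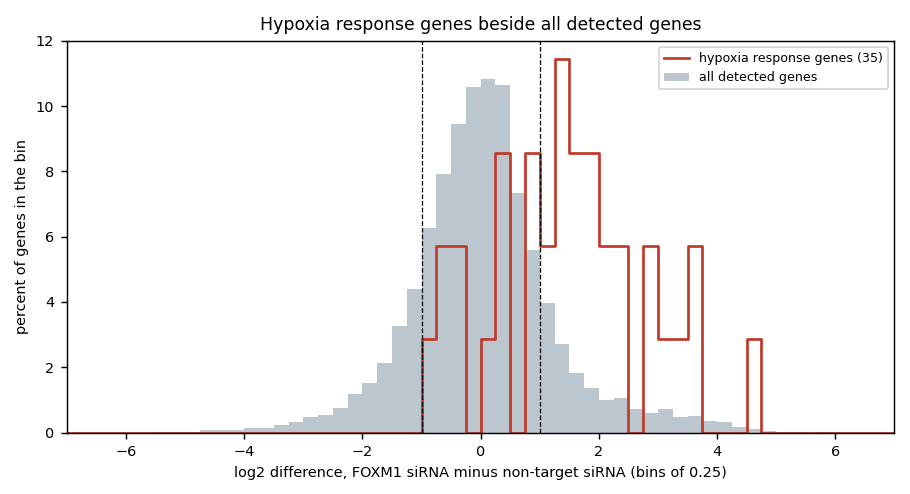
Percent of genes (y axis) by log2 difference in bins of 0.25 (x axis), with the 35 detected hypoxia response genes as the red line and all 13865 detected genes as grey bars; dashed lines mark 2-fold. The red line has no gene left of the lower dashed line and 23 genes right of the upper one, and the grey bars centre on 0.01.

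The short DNA core through which HIF acts can be looked for in the promoters. Printed here are 7 promoters, of members at least 2-fold higher with and without it, and of members under 2-fold with it. Each runs 5′ to 3′ on the gene's strand from 250 bases before to 50 after the annotated start (RefSeq, GRCh38.p14). Capitals mark every ACGTG or GCGTG on either strand, so that CACGT and CACGC are capitals too. CA12 (chr15:63381797-63382096, minus strand), ANGPTL4 (chr19:8363905-8364204, plus strand), LOX (chr5:122077125-122077424, minus strand) and BNIP3 (chr10:131981874-131982173, minus strand) are shown as genes with a core that read 12.7-fold, 10.3-fold, 7.28-fold and 3.34-fold higher. The LOX window opens inside coding letters of LOX, which end at a splice site (gtaagt). Its 2 cores come after that exon, so they lie inside the gene and not upstream of all of it. P4HA2 (chr5:132227042-132227341, minus strand) is shown because it read 6.76-fold higher and has no core in the window. EGLN1 (chr1:231422238-231422537, minus strand) and FAM162A (chr3:122383932-122384231, plus strand) are shown because they have a core and differed by less than 2-fold.
CA12: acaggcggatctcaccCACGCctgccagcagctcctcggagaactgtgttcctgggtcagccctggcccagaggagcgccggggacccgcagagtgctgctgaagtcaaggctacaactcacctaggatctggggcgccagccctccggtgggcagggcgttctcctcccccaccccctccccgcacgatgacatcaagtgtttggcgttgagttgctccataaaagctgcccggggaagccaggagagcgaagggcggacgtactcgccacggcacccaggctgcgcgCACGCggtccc
ANGPTL4: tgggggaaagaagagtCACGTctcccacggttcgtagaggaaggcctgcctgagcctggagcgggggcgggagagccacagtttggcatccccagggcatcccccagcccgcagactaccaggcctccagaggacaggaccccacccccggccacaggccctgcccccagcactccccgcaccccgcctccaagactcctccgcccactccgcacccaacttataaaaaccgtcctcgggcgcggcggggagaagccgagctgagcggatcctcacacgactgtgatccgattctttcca
LOX: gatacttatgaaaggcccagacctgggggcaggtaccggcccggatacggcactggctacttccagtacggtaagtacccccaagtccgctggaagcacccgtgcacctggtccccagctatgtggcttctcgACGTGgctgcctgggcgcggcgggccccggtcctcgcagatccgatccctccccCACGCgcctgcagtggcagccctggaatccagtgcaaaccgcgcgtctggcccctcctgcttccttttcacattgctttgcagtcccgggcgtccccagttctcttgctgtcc
BNIP3: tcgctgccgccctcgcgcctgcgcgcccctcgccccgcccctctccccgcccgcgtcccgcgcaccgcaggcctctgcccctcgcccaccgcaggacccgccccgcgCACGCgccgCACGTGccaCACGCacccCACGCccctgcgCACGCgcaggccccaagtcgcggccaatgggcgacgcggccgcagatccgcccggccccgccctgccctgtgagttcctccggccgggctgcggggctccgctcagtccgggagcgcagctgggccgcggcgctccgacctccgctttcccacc
P4HA2: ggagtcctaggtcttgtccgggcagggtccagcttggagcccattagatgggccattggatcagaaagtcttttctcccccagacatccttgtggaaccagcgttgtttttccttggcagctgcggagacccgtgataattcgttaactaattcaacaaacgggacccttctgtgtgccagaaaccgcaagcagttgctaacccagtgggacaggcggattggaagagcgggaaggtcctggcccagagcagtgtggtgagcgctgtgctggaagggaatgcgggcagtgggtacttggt
EGLN1: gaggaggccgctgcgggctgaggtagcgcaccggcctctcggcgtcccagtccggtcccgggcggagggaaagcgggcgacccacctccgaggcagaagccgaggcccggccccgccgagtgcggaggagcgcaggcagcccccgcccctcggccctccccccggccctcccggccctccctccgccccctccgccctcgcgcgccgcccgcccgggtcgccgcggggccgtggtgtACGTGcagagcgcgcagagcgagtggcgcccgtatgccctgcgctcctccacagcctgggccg
FAM162A: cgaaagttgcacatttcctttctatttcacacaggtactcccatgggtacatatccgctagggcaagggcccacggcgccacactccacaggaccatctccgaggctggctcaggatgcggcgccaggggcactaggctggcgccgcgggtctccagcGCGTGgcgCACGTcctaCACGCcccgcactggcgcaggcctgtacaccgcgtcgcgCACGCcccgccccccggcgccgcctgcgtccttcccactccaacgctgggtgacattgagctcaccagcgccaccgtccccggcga

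The core was common in these promoters, and common in promoters at large. Promoters were found for 31 members, and 26 of them (83.9%) held ACGTG or GCGTG on either strand, LOX through a window inside the gene. The share was 60.8% over 11189 promoters of detected genes and 47.8% over all 27305 promoters of the table. At least 2 matches were found in 15 of the 31 member promoters and in 32.1% of those of detected genes; a match to ACGTG on both strands makes CACGTG, the E-box bound by BHLHE40, and counts as 2. CACGTG itself was in 6 member promoters (19.4%) and in 9.63% of those of detected genes. The forkhead letters TGTTTA, searched on both strands because FOXM1 is a forkhead protein, were in 0 of 31 member promoters and in 7.44% of those of detected genes. The member promoters had a median GC content of 68.0%, against 64.7% for detected genes, and the cores contain a CpG, so the shares move with base composition. A match is a description of letters, and these windows leave out distant elements, and for the members any other start of the gene.

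Among the 29 detected members with a promoter, 24 had a core and 17 of these were at least 2-fold higher (70.8%), with a median log2 difference of 1.57. Both counts include LOX, whose window lies inside the gene. The 5 without a core were ARNT, EGLN3, MXI1, P4HA2 and RORA, with a median of -0.28, and 2 of them, P4HA2 and RORA, were at least 2-fold higher. The windows of these 5 had a GC content of 66.7%, 65.0%, 55.0%, 55.7% and 42.0% in that order, beside the member median of 68.0%. The ranges overlapped, from -0.62 to 3.66 with a core and from -0.87 to 2.76 without. Which members count as without a core depends on the window of each gene, and a link between core and difference was not tested. Over all detected genes the order ran the other way, with 13.3% at least 2-fold higher among those with a core and 18.6% among those without. FAM162A held 4 separate cores and differed by a log2 value of 0.15. Promoters of BNIP3L, NDRG1, STC1, LOXL2, HILPDA and JMJD6 were not used here.

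Both alpha subunits of HIF read higher and their partner did not. EPAS1, the alpha subunit best known from vessels and from stem-like glioma cells, had a signal of 19240 on FOXM1-si against 2079 on NT-si. That is 9.25-fold, and 2.13% of all detected genes had a larger log2 difference. A further probe set of EPAS1 was near the floor, at 89.6 on FOXM1-si against 10.6 on NT-si, and gave at least 1.47-fold. The median of both probe sets, at least 1.88 because of that bound, was also past 2-fold for EPAS1. HIF1A, the broadly expressed alpha subunit, read 23716 on FOXM1-si against 9477 on NT-si in its only probe set, 2.50-fold higher. ARNT, the shared beta subunit, read 637 on FOXM1-si against 896 on NT-si, a log2 difference of -0.49. Its probe sets did not go one way: the 3 above both floors gave -0.49, 0.69 and -0.70.

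**Figure D2:**
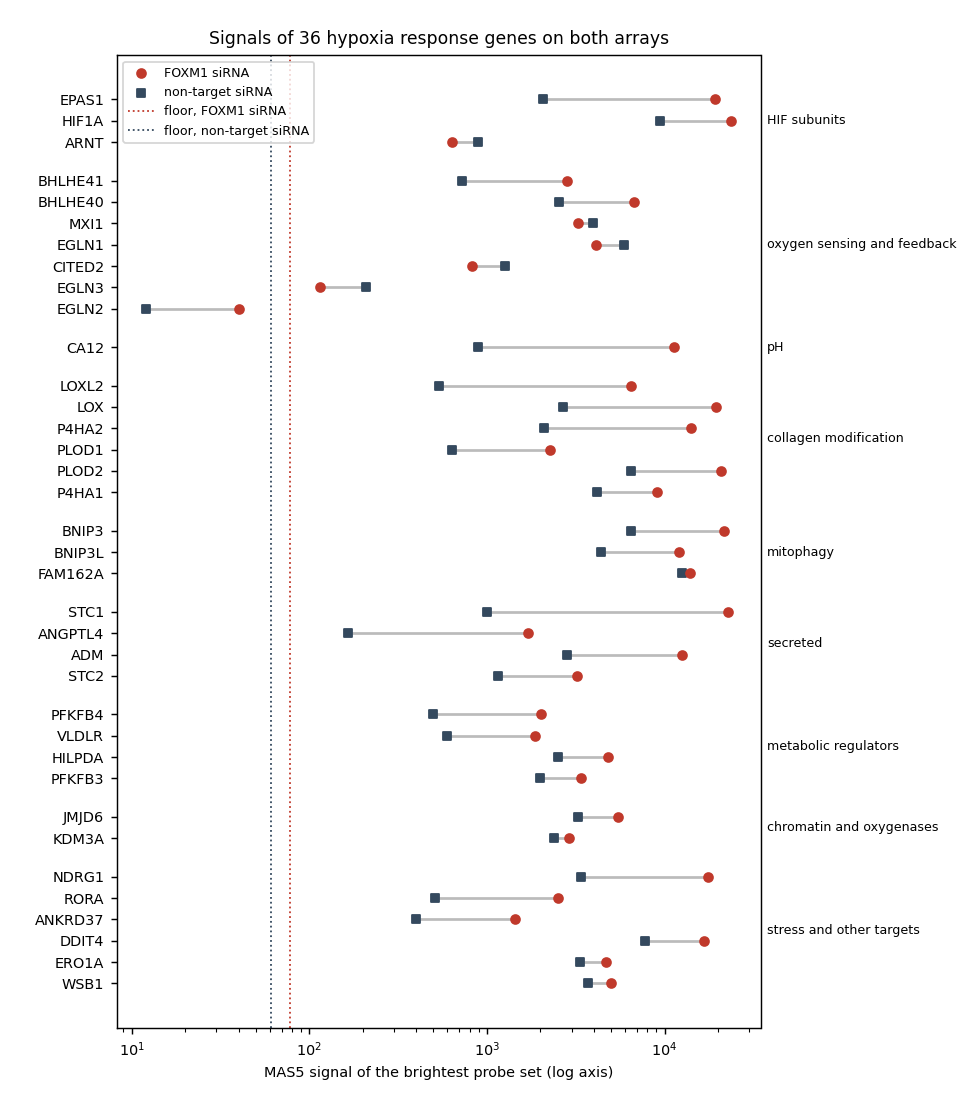
MAS5 signal of the brightest probe set (x axis, log scale) of the 36 genes with a probe set (y axis, grouped by role), with red circles for FOXM1-si and dark squares for NT-si; dotted lines are the floors of each array. The red circle lies right of the square for 30 of the 35 genes above the floors, and left of it for ARNT, MXI1, EGLN1, CITED2 and EGLN3.

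The detected oxygen sensors and some of the feedback genes did not read higher. EGLN1, the main hydroxylase that marks HIF alpha subunits and itself a HIF target, had signals of 4090 on FOXM1-si against 5882 on NT-si, a log2 difference of -0.52. Its 3 probe sets above both floors agreed closely, from -0.52 to -0.33. EGLN3, a hydroxylase of the same family that is among the genes most readily induced by HIF, read 115 on FOXM1-si against 210 on NT-si, a log2 difference of -0.87. The other EGLN3 probe set read 43.2 on FOXM1-si, below the floor, against 221 on NT-si, at least 2.85-fold lower. EGLN3 passed 2-fold downward with the median of its probe sets (-1.19, with 1 of them at the floor) and with the hybridisation controls set equal (-1.17). Both probe sets lay near or under the floor on FOXM1-si, so these sizes rest on weak signals.

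CITED2, which competes with HIF for the coactivators CBP and p300, read 828 on FOXM1-si against 1272 on NT-si, a log2 difference of -0.62, while its other probe set above both floors gave 0.09. MXI1, an antagonist of MYC, read 3246 on FOXM1-si against 3935 on NT-si (-0.28). These 4 negative values of EGLN1, EGLN3, CITED2 and MXI1 were all under 2-fold. The 2 members of this role that were at least 2-fold higher encode related repressors of transcription. BHLHE40 read 6742 on FOXM1-si against 2551 on NT-si, 2.64-fold higher, and BHLHE41 2811 on FOXM1-si against 727 on NT-si, 3.87-fold higher. For BHLHE41, 1 weak probe set at 104 on FOXM1-si against 71.2 on NT-si gave a log2 difference of 0.55 and the other 2 gave 1.95 and 1.85. Over the 6 detected genes of oxygen sensing and feedback the median was -0.40, the lowest of the roles.

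**Figure D3:**
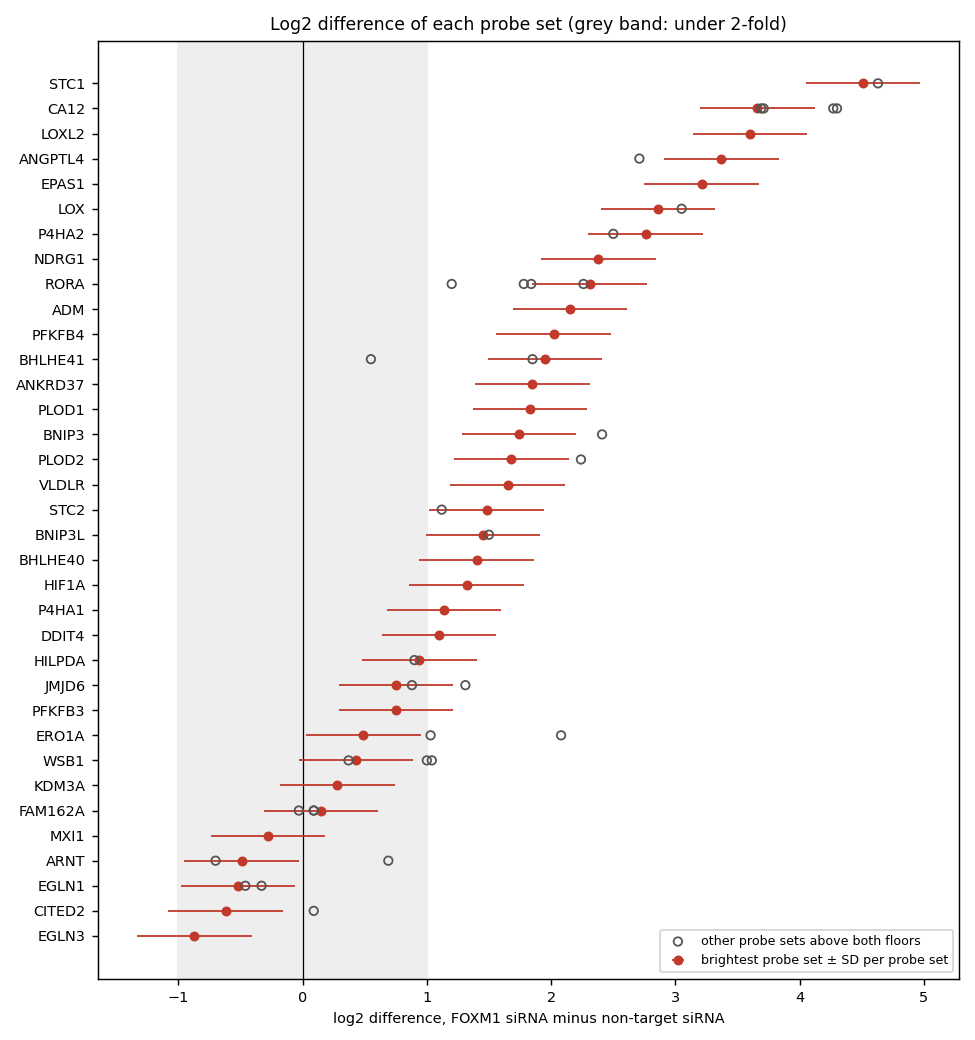
Log2 difference (x axis, FOXM1-si minus NT-si) of the 35 detected genes in order of size (y axis); red points are the brightest probe set with the SD of 0.46 per probe set, open circles are the other probe sets above both floors, and the grey band is under 2-fold. STC1 at 4.51 and CA12 at 3.66 lead, and the circles of ERO1A, BHLHE41 and ARNT lie farthest from their red point.

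Among pH genes only CA12, a membrane carbonic anhydrase that turns CO2 and water into bicarbonate and protons outside the cell, could be read. Its brightest probe set had signals of 11284 on FOXM1-si against 891 on NT-si, 12.7-fold higher, and 1.23% of all detected genes had a larger difference. The 5 probe sets of CA12 above both floors gave log2 differences from 3.66 to 4.30. Without probe sets whose probes can match several transcripts the fold was larger, at 11861 on FOXM1-si against 601 on NT-si, or 19.7-fold. From the list of other pH genes, 4 were detected. The bicarbonate carriers SLC4A4 (524 on FOXM1-si against 157 on NT-si) and SLC4A7 (3537 on FOXM1-si against 1494 on NT-si) were 3.34-fold and 2.37-fold higher, the other SLC4A7 probe set giving a log2 difference of 0.67, and BSG, a chaperone of lactate carriers, read 1529 on FOXM1-si against 650 on NT-si, 2.35-fold higher. CA2, the cytoplasmic carbonic anhydrase, went the opposite way to CA12, with 757 on FOXM1-si against 10617 on NT-si, 14.0-fold lower.

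All 6 collagen-modifying members were at least 2-fold higher, with a median log2 difference of 2.29. These enzymes hydroxylate collagen chains in the endoplasmic reticulum or crosslink fibres outside the cell. LOXL2, a lysyl oxidase family crosslinker, read 6495 on FOXM1-si against 535 on NT-si in its brightest probe set, 12.1-fold higher, and its other 3 probe sets lay below both floors. LOX, the founding lysyl oxidase, read 19502 on FOXM1-si against 2680 on NT-si, 7.28-fold higher, and a further probe set gave 8.30-fold. P4HA2, a catalytic subunit of collagen prolyl 4-hydroxylase, had 14116 on FOXM1-si against 2088 on NT-si, 6.76-fold higher, with 5.66-fold in a further probe set.

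PLOD1 and PLOD2, which hydroxylate collagen lysines, were 3.55-fold (2264 on FOXM1-si against 637 on NT-si) and 3.21-fold (20714 on FOXM1-si against 6445 on NT-si) higher, and the other PLOD2 probe set gave 4.73-fold. P4HA1, the other catalytic subunit, was the closest of the 6 to the threshold at 2.20-fold (9097 on FOXM1-si against 4140 on NT-si). It lay under 2-fold with the hybridisation controls set equal, at a log2 difference of 0.83. Of 12 detected genes in the list of other collagen-modifying genes, 5 passed 2-fold upward and 0 downward (median 0.64). LOXL3 and LOXL1 were 11.1-fold (2663 on FOXM1-si against 240 on NT-si) and 9.03-fold (1896 on FOXM1-si against 210 on NT-si) higher. P3H2, a collagen prolyl 3-hydroxylase, was 5.22-fold higher at 407 on FOXM1-si against 78.0 on NT-si, and P4HB, the partner subunit of P4HA1 and P4HA2, 2.57-fold higher at 18947 on FOXM1-si against 7387 on NT-si. The mesenchymal markers given above include the collagen genes COL1A1 and COL1A2, which read 11394 on FOXM1-si against 1119 on NT-si and 8631 on FOXM1-si against 515 on NT-si; another COL1A1 probe set gave a log2 difference of -0.06. The part of these markers in the collagen-modifying values was not tested.

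Of the mitochondrial members, the 2 mitophagy receptors were at least 2-fold higher and the third gene was not. BNIP3, an outer-membrane protein that recruits the autophagy machinery to mitochondria, had 21570 on FOXM1-si against 6465 on NT-si, 3.34-fold higher, and 5.32-fold in its other probe set. Its relative BNIP3L (NIX) read 11998 on FOXM1-si against 4379 on NT-si, 2.74-fold higher, and 2.83-fold in its other probe set. FAM162A, a mitochondrial protein gene induced by HIF, read 13867 on FOXM1-si against 12513 on NT-si, a log2 difference of 0.15. Its 4 probe sets above both floors lay between -0.03 and 0.15, and another, at 101 on FOXM1-si and 12.7 on NT-si, below the floor there, gave at least 0.72. With the hybridisation controls set equal the log2 difference of FAM162A was -0.16.

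From the list of other mitophagy genes, 3 of 10 detected passed 2-fold upward and 0 downward (median 0.43). OPTN, an autophagy adaptor, was 4.79-fold higher (3745 on FOXM1-si against 783 on NT-si), and PINK1, the kinase that marks damaged mitochondria, 3.02-fold higher (1645 on FOXM1-si against 544 on NT-si). SQSTM1, another adaptor, was 2.83-fold higher by its brightest probe set (7106 on FOXM1-si against 2507 on NT-si), but its 4 probe sets above both floors ranged from -0.29 to 2.19.

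All 4 secreted members were at least 2-fold higher, and the member with the largest difference was among them. STC1, a glycoprotein hormone that acts on calcium and phosphate handling, had a signal of 22685 on FOXM1-si against 996 on NT-si, 22.8-fold higher; 0.188% of all detected genes had a larger difference. A second probe set of STC1 gave 24.7-fold (6244 on FOXM1-si against 253 on NT-si), and another, with 1266 on FOXM1-si against 34.2 on NT-si, gave at least 20.8-fold. ANGPTL4, an inhibitor of lipoprotein lipase, read 1710 on FOXM1-si against 165 on NT-si, 10.3-fold higher, and 6.54-fold in its other probe set. ADM, the vasodilator peptide adrenomedullin, had 12583 on FOXM1-si against 2832 on NT-si, 4.44-fold higher. STC2, the relative of STC1, read 3231 on FOXM1-si against 1156 on NT-si, 2.80-fold higher, and 2.17-fold in its other probe set.

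Among metabolic regulators the differences were moderate. PFKFB4 and PFKFB3 encode enzymes that set the level of fructose 2,6-bisphosphate, a signal that speeds glycolysis. PFKFB4 read 2027 on FOXM1-si against 499 on NT-si, 4.06-fold higher, and PFKFB3 3368 on FOXM1-si against 2002 on NT-si, a log2 difference of 0.75. VLDLR, a lipoprotein receptor, had 1862 on FOXM1-si against 593 on NT-si, 3.14-fold higher. HILPDA, a lipid droplet protein that blocks lipolysis, read 4789 on FOXM1-si against 2498 on NT-si (0.94), just under the threshold, and its other probe set gave 0.90. With loess scaling HILPDA lay at 1.02, past 2-fold.

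The 2 members that act on histones or other nuclear proteins differed by less than 2-fold. KDM3A, a histone H3 lysine 9 demethylase, read 2883 on FOXM1-si against 2378 on NT-si, a log2 difference of 0.28 within the SD per probe set, and -0.03 with the hybridisation controls set equal. JMJD6, a lysyl hydroxylase of nuclear proteins, read 5472 on FOXM1-si against 3245 on NT-si (0.75), with 0.88 and 1.31 in its other probe sets above both floors.

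Of the remaining targets, 4 of 6 were at least 2-fold higher. NDRG1, a stress-responsive gene, had 17564 on FOXM1-si against 3377 on NT-si, 5.20-fold higher. RORA, a nuclear receptor, read 2523 on FOXM1-si against 509 on NT-si, 4.96-fold higher, and its 5 probe sets above both floors gave log2 differences from 1.20 to 2.31. The median of those 5 was 1.84. It was 1.81 with a further RORA probe set, which read 70.1 on FOXM1-si, below the floor, against 67.9 on NT-si and gave no measured fold. ANKRD37, a small ankyrin-repeat protein gene regarded as a sensitive HIF-1 target, read 1432 on FOXM1-si against 397 on NT-si, 3.60-fold higher.

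DDIT4, which restrains mTORC1 and also answers to other stresses, read 16662 on FOXM1-si against 7793 on NT-si, 2.14-fold higher, and lay under 2-fold with the hybridisation controls set equal (0.79). WSB1, a substrate receptor of a ubiquitin ligase, read 5017 on FOXM1-si against 3724 on NT-si (0.43), with values up to 1.04 in its further probe sets. ERO1A, the oxidase that makes disulfide bonds in the endoplasmic reticulum, depended on the probe set. Its brightest one read 4707 on FOXM1-si against 3346 on NT-si (0.49), another 3500 on FOXM1-si against 829 on NT-si (2.08) and the last 1351 on FOXM1-si against 663 on NT-si (1.03), so ERO1A counted as under 2-fold by the brightest and past 2-fold by the median of the 3.

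Within the members, agreement between probe sets could be checked for 19 genes with at least 2 of them above both floors. In 16 of the 19 all such probe sets had the same sign; the exceptions were ARNT, CITED2 and FAM162A. Of the 11 among them that were at least 2-fold higher, all had probe sets of 1 sign and 10 had every such probe set past 2-fold, the exception being BHLHE41. Probe sets of a gene share the RNA of the 2 samples and are not replicates of the condition.

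Related genes with the same kind of activity differed in size. Each of 9 pairs was compared by the gap between the log2 differences of its brightest probe sets, beside 1.31, which is 2 SD of the gap between 2 probe sets of 1 gene. The gap exceeded this in 3 pairs. STC1 exceeded STC2 by 3.03, EPAS1 exceeded HIF1A by 1.89 and P4HA2 exceeded P4HA1 by 1.62. The gap of EPAS1 over HIF1A rests on 1 probe set above both floors for each gene. With the median of its probe sets EPAS1 was at least 1.88, beside 1.32 for HIF1A, so that gap depends on the probe set choice. For PFKFB4 over PFKFB3 the gap was 1.27, just inside, and for LOXL2 over LOX it was 0.74. BHLHE41 over BHLHE40 (0.55), BNIP3 over BNIP3L (0.28) and PLOD1 over PLOD2 (0.15) lay well inside. EGLN3 lay below EGLN1 by 0.34 on the log2 scale, both on the negative side.

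**Figure D4:**
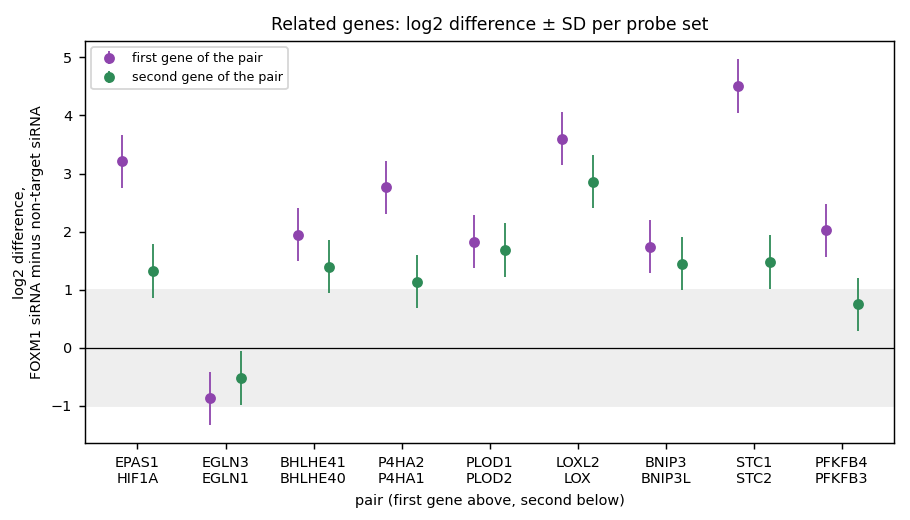
Log2 difference (y axis, FOXM1-si minus NT-si) of 9 pairs of related genes (x axis), the first gene in purple and the second in green, with the SD of 0.46 per probe set as bars; the grey band is under 2-fold. The purple and green points are farthest apart for STC1 and STC2, at 4.51 and 1.48, and closest for PLOD1 and PLOD2, at 1.83 and 1.68.

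Other genes of the pathway were read from lists chosen by name, also with earlier results of these data known. The median of the HIF regulators lay near 0, with single genes from -1.71 to 0.58 on the log2 scale. Of 16 detected, none was at least 2-fold higher and 1 was lower, with a median log2 difference of 0.02. Over all detected genes these shares were 16.0% and 15.4%. The probe sets of MAX, the partner of MYC, ranged from -0.14 in the brightest to 1.40. VHL, which recognises hydroxylated HIF alpha, read 307 on FOXM1-si against 442 on NT-si (-0.52), and HIF1AN, the asparaginyl hydroxylase that blocks coactivator binding, 911 on FOXM1-si against 880 on NT-si (0.05). CREBBP, a coactivator of HIF, was the exception with 797 on FOXM1-si against 2611 on NT-si, 3.28-fold lower, while its relative EP300 read 734 on FOXM1-si against 1092 on NT-si (-0.57).

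Further HIF targets, glucose transporters and enzymes included, were mostly higher. Of 25 detected, 15 were at least 2-fold higher and 1 was lower, with a median of 1.13. The 4 with the largest difference of either sign were CXCR4, ENO2, PPP1R3C and MAFF. ENO2, a glycolytic enolase, was 11.5-fold higher (6531 on FOXM1-si against 567 on NT-si), PPP1R3C, a glycogen synthesis regulator, 11.2-fold higher (4784 on FOXM1-si against 428 on NT-si) and MAFF, a small transcription factor, 10.1-fold higher (10896 on FOXM1-si against 1078 on NT-si). CXCR4, a chemokine receptor induced by HIF in many cells, went the other way. It read 61.3 on FOXM1-si, below the floor, against 1245 on NT-si, at least 16.0-fold lower. PDK1, which directs pyruvate away from mitochondria, and LDHA, which makes lactate, were under 2-fold, with log2 differences of 0.31 (3587 on FOXM1-si against 2896 on NT-si) and 0.49 (45079 on FOXM1-si against 32102 on NT-si).

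**Figure D5:**
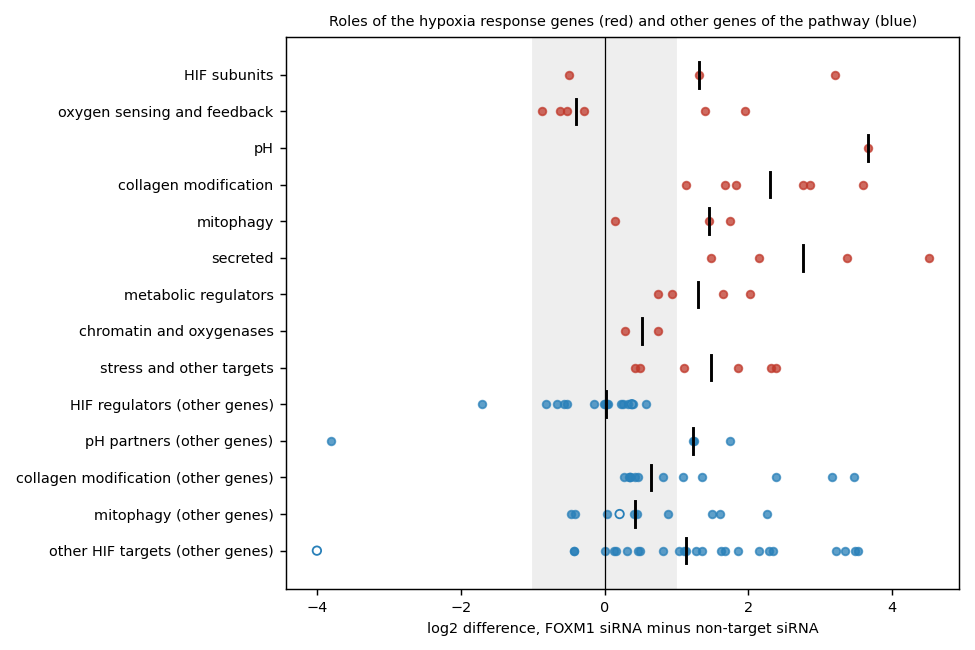
Log2 difference (x axis, FOXM1-si minus NT-si) of detected genes by role (y axis), with the hypoxia response genes in red and the other genes of the pathway in blue; black ticks are medians, open circles are genes above the floor on 1 array only, with the floor in place of the lower signal, and the grey band is under 2-fold. The red points of collagen modification and secretion all lie right of the band, with medians of 2.29 and 2.76. The blue points of HIF regulators run from -1.71 to 0.58, with a median of 0.02.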

How the data were processed

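RNA of 1 sample per group was hybridised to 1 array each, labelled with biotin by a 3' IVT kit per the labels' protocols. The deposited values are linear signal intensities that the authors made with MAS5, per the submitters' processing notes, with settings not given in the sources used here. Both arrays had a trimmed mean of 500.07 (2% trimmed per tail), so they had been scaled alike. The number of arrays limits the precision.

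Of 54675 probe sets, 41097 had 1 gene symbol in the platform annotation, updated through gene IDs (RefSeq table, GRCh38.p14), and those with several symbols named no gene. The 135 olfactory receptor probe sets set the floors, and weaker signals were set to it ahead of the log2 step. Each gene was represented by the probe set of highest mean log2 signal. A 2-fold threshold was used, with no test. Every member was named, FOXM1 and the 9p21 genes too, and up to 4 genes past 2-fold from each further list; a few others were named after their values were seen. Members and lists were chosen with earlier results of these data known. The calculation was tested on simulated data. Alternatives were other scalings (limma 3.58.1, R 4.3.3), floors, probe set choices, a pseudocount and a 1.5-fold threshold. Python 3.11.15, numpy 2.4.6 and pandas 2.3.3 were used.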

Additional observations from a re-analysis of the deposited data

How the results depend on the processing

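The median log2 difference of the members ran from 1.18 (hybridisation controls set equal) to 1.61 (without probe sets ending in _x_at or _s_at) over 11 alternatives, and that of all detected genes from -0.29 to 0.04. Of the 23 members at least 2-fold higher, 21 were so in every one of the 11 alternatives in which they had a value; the exceptions were P4HA1 and DDIT4, with the hybridisation controls set equal. Without the _x_at and _s_at probe sets only 20 members were detected, of which 13 were at least 2-fold higher (65.0%), and FOXM1 had no value. The count at least 2-fold lower was 1 in place of 0 with the hybridisation controls set equal and with probe sets summarised by their median (EGLN3 in both), and 2 at 1.5-fold. Over all detected genes, 3200 were lower with the hybridisation controls set equal, and 3623 were higher and 3714 lower at 1.5-fold. No member at least 2-fold different reversed its sign in these alternatives. No paired analysis was possible because each group holds 1 array, so no array could be left out either. Weak probe sets, such as those of EGLN3, depend most on the floor: its log2 difference was -0.44 with a floor 2 times as high.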

Other observations

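Weak signals carry more error, so the shares were also read with a minimum on the mean signal of the 2 arrays. With a minimum of 1310, the lower quartile of the members, 17 of 26 members were at least 2-fold higher, with a median log2 difference of 1.43. Of the 4392 detected genes that passed the same minimum, 11.9% were at least 2-fold higher and the median was -0.10.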
